A study of Sus scrofa with 20 samples.

Results

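The 10 genes described here, GPAM, GPAT3, GPAT4, AGPAT2, AGPAT3, LPIN1, LPIN2, LPIN3, DGAT1 and DGAT2, encode enzymes of the last 4 steps of triacylglycerol synthesis. They were chosen by name, and all 10 were found among the 31907 genes of the RNA-seq count table. The samples were backfat (subcutaneous fat) and liver of 5 Nanchukmacdon boars, a Korean pig breed, labelled wild type, normal and 22 months old, with no treatment in either tissue. The methods of the study give another average age. RNA-seq gave 5 libraries per tissue, named here by tissue and by the boar number of their column. WGBS libraries of the same tissues also belong to the study, but their calls carry no genomic position, and methylation of these genes was not analysed here. A comparison of bulk tissues cannot tell a change within one cell type from a change in the share of that cell type, so fewer cells of a type and less RNA per cell cannot be told apart.

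Triacylglycerol is built on glycerol 3-phosphate. A glycerol 3-phosphate acyltransferase adds the first fatty acid, a 1-acylglycerol 3-phosphate acyltransferase adds the second and makes phosphatidate, a lipin removes the phosphate to give diacylglycerol, and a diacylglycerol acyltransferase adds the last fatty acid. Adipocytes store the product in a lipid droplet, whereas hepatocytes also pack it into very low density lipoprotein, and both use the same intermediates for phospholipids. Each step is served by several isoenzymes, so the tissues were compared gene by gene and also by the mixture of isoenzymes within a step.

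All 10 genes differed between backfat and liver at a false discovery rate (FDR) of at most 0.05 in the edgeR quasi-likelihood test, 6 higher in backfat (LPIN1, DGAT2, DGAT1, GPAT3, LPIN3 and GPAT4) and 4 higher in liver (GPAM, LPIN2, AGPAT2 and AGPAT3). The 2 directions occurred within the same step at 2 of the 4 steps, the first and the third. Of all 16275 genes tested, 55.0% passed the same FDR, 28.0% as higher in backfat and 27.0% as higher in liver. LPIN1, DGAT2, GPAM and LPIN2 were also past a log2 fold change of 2 in either direction, which 22.3% of all genes tested passed with the FDR. The median size of the log2 fold change was 1.65 over the 10 genes and 0.81 over all genes tested, and each gene had its direction in 5 of 5 boars.

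The sequences just before the annotated starts of LPIN1, LPIN2 and DGAT2, all past both thresholds, are shown because they differ widely in content of CpG, the dinucleotide that WGBS reads. Each is the 250 bases upstream of the outermost RefSeq gene start on Sscrofa11.1, written 5′ to 3′ on the strand of the gene, with CpG sites in capitals.
LPIN1 (chr3:125074138-125074387, minus strand): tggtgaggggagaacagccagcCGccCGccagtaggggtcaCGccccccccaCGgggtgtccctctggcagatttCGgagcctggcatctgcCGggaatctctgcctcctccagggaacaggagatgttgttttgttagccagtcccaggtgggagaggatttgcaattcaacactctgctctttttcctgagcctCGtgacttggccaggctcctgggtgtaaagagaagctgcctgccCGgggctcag
LPIN2 (chr6:103625475-103625724, plus strand): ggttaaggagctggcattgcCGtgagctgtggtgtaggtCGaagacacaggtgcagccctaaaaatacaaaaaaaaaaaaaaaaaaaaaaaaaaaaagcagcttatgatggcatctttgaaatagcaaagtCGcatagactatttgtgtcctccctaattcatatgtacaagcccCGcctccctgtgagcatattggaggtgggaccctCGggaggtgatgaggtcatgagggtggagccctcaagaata
DGAT2 (chr9:10031913-10032162, plus strand): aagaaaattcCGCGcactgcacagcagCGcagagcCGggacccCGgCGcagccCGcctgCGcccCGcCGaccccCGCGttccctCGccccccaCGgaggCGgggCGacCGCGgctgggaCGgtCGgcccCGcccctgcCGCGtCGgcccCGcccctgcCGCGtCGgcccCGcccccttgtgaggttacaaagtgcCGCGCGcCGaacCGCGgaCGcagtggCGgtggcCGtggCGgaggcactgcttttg
The LPIN2 window held 5 CpG sites, the LPIN1 window 8 and the DGAT2 window 39. The median over the windows of 20664 genes was 11. In the windows of other enzymes, GPAT3 had 40 sites, AGPAT2 42, AGPAT3 37, DGAT1 30, GPAT4 16 and LPIN3 3. CpG content did not sort the genes by tissue, since windows with many sites belonged to genes higher in backfat (DGAT2, GPAT3, DGAT1) and to genes higher in liver (AGPAT2, AGPAT3). The letters CACGTG, an E-box whose reverse complement is the same, were found in none of these windows and in 6.16% of all windows. The letters GGGCGG (GC box, either strand) were present in the windows of GPAT3, AGPAT2, AGPAT3, LPIN1, DGAT1 and DGAT2 and in 44.4% of all windows. RefSeq gives 6 start sites for LPIN1, 4 for LPIN2, 13 for AGPAT3, 3 for GPAT3 and 3 for DGAT1. The start used in these tissues is not known from gene counts, so a window may not lie at it.

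Total counts per library were similar in the tissues, from 45157114 to 61772737 in backfat and from 43820042 to 53768601 in liver. The tissue labels were checked with marker genes. The 6 adipocyte markers summed to 14610 to 20570 CPM in backfat and 7.179 to 8.786 in liver. CPM are counts scaled to a common library size, after TMM normalization for single genes and by total counts alone for these marker sums. The 8 hepatocyte markers summed to 201.6 to 704.2 CPM in backfat, the most in backfat 69. In liver they summed to 64980 to 83880 CPM in 4 libraries and 19790 in liver 67. That library stood apart in other ways too: genes of the mitochondrial genome took 44.48% of its counts against 6.384 to 20.25% in the other liver libraries, and its skeletal muscle and red cell markers summed to 114.4 and 1273 CPM against at most 1.118 and 283 CPM. In backfat, the skeletal muscle markers ranged from 11.66 CPM in backfat 72 to 573.4 CPM in backfat 65. Fibroblast markers were also much higher in backfat, at 44530 to 79900 CPM against 525.6 to 752.9 CPM, as were endothelial markers, at 745.2 to 1492 CPM against 70.71 to 151.6 CPM. No matched marker was at 0 in every library of a tissue. The part of these differences in the results was not tested, and log2 fold changes without liver 67 are given for the enzymes at which it was the lowest or highest liver library.

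**Figure D1:**
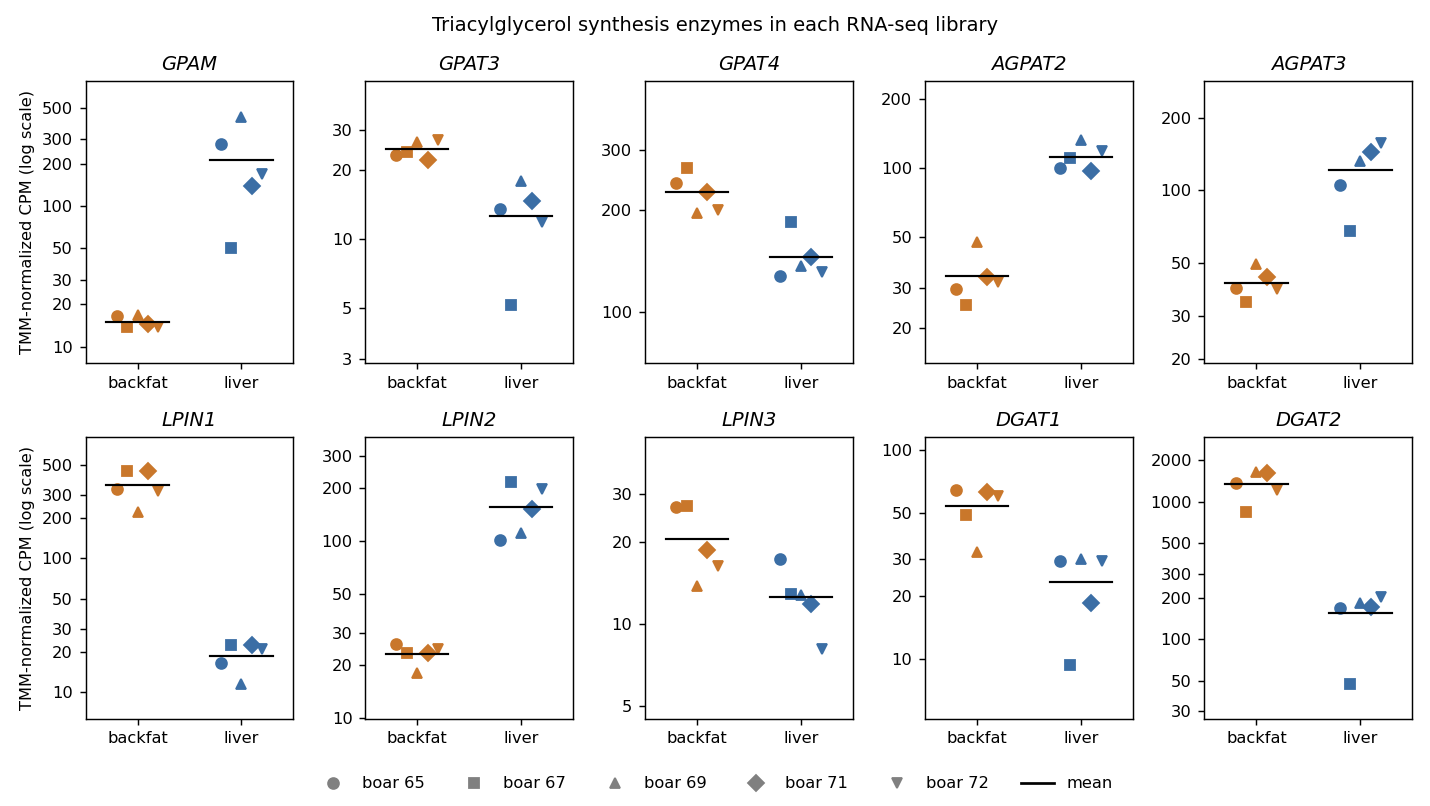
TMM-normalized CPM of the 10 enzymes (log scale, a separate range for each gene) in backfat and liver; each symbol is 1 library, its shape gives the boar and the black line is the mean of 5 libraries. The tissues are separated for every gene but LPIN3, and liver 67 (square) is the lowest liver library for GPAM, GPAT3, AGPAT3, DGAT1 and DGAT2.

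At the first step, the 3 acyltransferases moved in different directions: GPAM was 14.09-fold higher in liver, and GPAT3 and GPAT4 were 1.951-fold and 1.555-fold higher in backfat. GPAM (ENSSSCG00000010631, chr14:122538600-122582390, minus strand, 22 exons) encodes the acyltransferase of the outer mitochondrial membrane. Its level in backfat was 16.5, 13.8, 16.9, 14.5 and 13.9 CPM in boars 65, 67, 69, 71 and 72. In liver it was 275, 50.01, 430, 139 and 170 CPM in the same order. Every liver library was above every backfat library, but the liver libraries differed among themselves far more than those of backfat, with a coefficient of variation of 68.53% against 9.678%. The log2 fold change (backfat over liver, here and below) was -3.82 ± 0.47 (SE, n = 5 per tissue, edgeR FDR = 1.957e-05). Without liver 67, the lowest liver library, it was -4.10 (edgeR FDR = 5.043e-07).

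GPAT3 (ENSSSCG00000009233, chr8:134912493-135002140, minus strand) and GPAT4 (ENSSSCG00000007019, chr17:10705998-10724486, plus strand) encode the acyltransferases of the endoplasmic reticulum. GPAT3 was at 23.2, 24.1, 26.5, 22.1 and 27.2 CPM in backfat (boars 65, 67, 69, 71 and 72) and at 13.5, 5.18, 17.9, 14.6 and 11.9 CPM in liver. The log2 fold change of GPAT3 was 0.96 ± 0.26 (SE, n = 5 per tissue, edgeR FDR = 0.007665), and 0.73 without liver 67, which was again the lowest. GPAT4 was the most abundant of the 3 in backfat, with 240, 265, 195, 226 and 200 CPM, and was at 127, 184, 137, 145 and 131 CPM in liver. Its difference was the smallest of the 10 genes under TMM scaling, with a log2 fold change of 0.64 ± 0.18 (SE, n = 5 per tissue, edgeR FDR = 0.008184). The 2 tissues did not overlap for either gene, although liver 67, the highest liver library for GPAT4, came close to the lowest backfat library. Without liver 67 the log2 fold change of GPAT4 was 0.70.

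Counts divided by exon length allow isoenzymes to be compared within a library, and such a share does not depend on how libraries are scaled. GPAM made up 2.716% ± 0.4367 (SD, n = 5) of the summed level of the first step in backfat and 35.51% ± 17.4 (SD, n = 5) in liver. In single liver libraries the GPAM share was 47.1, 10.9, 55.9, 28.4 and 35.2% (boars 65, 67, 69, 71 and 72). GPAT4 was the leading isoenzyme in backfat at 86.5% ± 2.22 (SD) and had 59.03% ± 18.31 (SD) in liver, where it ranged from 38.42% in liver 69 to 86.42% in liver 67. Which isoenzyme leads in liver depends on the division by exon length (8119 bases for GPAM, 3755 for GPAT4). In CPM, GPAM had the higher liver mean, at 212.7 against 144.8, although GPAT4 was higher in liver 67 and liver 71. The difference in share passed the exact permutation test for GPAM and GPAT3 (two-sided, adjusted p = 0.0119 each) and for GPAT4 (adjusted p = 0.03061). Without liver 67 the GPAM share differed by -38.96 percentage points in place of -32.8, the GPAT3 share by 4.65 in place of 5.333, and the GPAT4 share by 34.31 in place of 27.47. The smallest unadjusted p of 5 against 5 libraries is 0.00794. The summed level of the step was 69.19 ± 7.257 CPM per kb (SD, n = 5) in backfat and 68.54 ± 15.74 in liver, a difference of 0.035 on the log2 scale that did not pass the exact permutation test (adjusted p = 0.8175) and whose direction changed with the length and the scaling used.

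At the second step, AGPAT2 and AGPAT3 were 3.327-fold and 2.954-fold higher in liver. AGPAT2 (ENSSSCG00000040845, on an unplaced scaffold, 1095782-1106471, plus strand) encodes the enzyme whose loss causes a congenital lipodystrophy in humans. It was at 29.6, 25.3, 47.6, 33.5 and 31.9 CPM in backfat (boars 65, 67, 69, 71 and 72) and at 99.7, 110, 133, 97.2 and 118 CPM in liver. The lowest liver library was above the highest backfat library, backfat 69, and the log2 fold change was -1.73 ± 0.19 (SE, n = 5 per tissue, edgeR FDR = 7.131e-06). AGPAT3 (ENSSSCG00000038081, chr13:206803219-206906363, plus strand) encodes a related acyltransferase that also takes part in phospholipid remodelling. AGPAT3 was at 39.4, 34.5, 49.3, 43.6 and 39.0 CPM in backfat and at 105, 67.9, 132, 145 and 158 CPM in liver, without overlap. Its log2 fold change was -1.56 ± 0.22 (SE, n = 5 per tissue, edgeR FDR = 6.901e-05), and -1.75 without liver 67, the lowest liver library. Within their sum, AGPAT2 made up 67.49% ± 2.37 (SD, n = 5) in backfat and 70.71% ± 6.661 in liver, a difference of -3.224 percentage points that did not pass the exact permutation test (adjusted p = 0.4018). It was -0.704 without liver 67, the highest liver library at 80.79%, and -5.022 without liver 71, the lowest at 63.52%. The larger share of AGPAT2 rests on division by exon length, 1469 bases against 3803 for AGPAT3. In CPM, AGPAT3 had the higher mean, at 41.15 against 33.57 in backfat and 121.6 against 111.7 in liver.

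The direction of this step depended on which genes were counted. AGPAT2 and AGPAT3 together summed to 33.68 ± 7.129 CPM per kb (SD, n = 5) in backfat and 108.0 ± 14.89 in liver (exact permutation test, adjusted p = 0.01587). AGPAT1 (ENSSSCG00000001435, chr7:24205930-24208430, minus strand), which encodes an acyltransferase of the same reaction, was at 370, 312, 426, 546 and 499 CPM in backfat (boars 65, 67, 69, 71 and 72) and at 17.6, 26.2, 17.4, 23.7 and 22.9 CPM in liver. The log2 fold change of AGPAT1 was 4.32 ± 0.24 (SE, n = 5 per tissue, edgeR FDR = 3.171e-08), close to the 4.23 of LPIN1, and 4.36 without liver 67, the highest liver library. When AGPAT1, AGPAT4 and AGPAT5 were counted in the step, an alternative chosen after the data were seen, AGPAT1 made up 79.86% ± 3.224 (SD, n = 5) of the sum in backfat and 7.07% ± 1.757 in liver. AGPAT2 then had 11.08% ± 2.363 in backfat and 63.34% ± 5.639 in liver (exact permutation test, adjusted p = 0.01323 for AGPAT1 and AGPAT2). With these genes the step as a whole was higher in backfat by 0.78 on the log2 scale (exact permutation test, adjusted p = 0.01587).

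At the third step, the lipins changed places: LPIN1 was 18.72-fold higher in backfat and LPIN2 was 6.746-fold higher in liver. Lipins dephosphorylate phosphatidate at the endoplasmic reticulum and can also act in the nucleus as coregulators of transcription. LPIN1 (ENSSSCG00000008624, chr3:124940557-125074137, minus strand) was at 327, 451, 223, 446 and 319 CPM in backfat (boars 65, 67, 69, 71 and 72) and at 16.5, 22.6, 11.5, 22.6 and 21.2 CPM in liver. The lowest backfat library, backfat 69, was still far above every liver library, and the log2 fold change was 4.23 ± 0.29 (SE, n = 5 per tissue, edgeR FDR = 1.265e-07). LPIN2 (ENSSSCG00000038494, chr6:103625725-103728151, plus strand) was at 26.0, 23.3, 17.8, 23.2 and 24.6 CPM in backfat and at 102, 216, 111, 152 and 196 CPM in liver. Its libraries were narrowly spread in backfat and more widely in liver, without overlap, and the log2 fold change was -2.75 ± 0.24 (SE, n = 5 per tissue, edgeR FDR = 9.682e-07). Liver 67 was the highest library for LPIN2, and the log2 fold change without it was -2.64.

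LPIN3 (ENSSSCG00000007359, chr17:43993710-44006188, plus strand) was the least different lipin. It was at 26.9, 27.1, 13.8, 18.6 and 16.3 CPM in backfat (boars 65, 67, 69, 71 and 72) and at 17.3, 12.9, 12.8, 11.8 and 8.08 CPM in liver. The 2 tissues overlapped, with backfat 69 and backfat 72 below liver 65, although backfat was higher in each of the 5 boars. The log2 fold change was 0.71 ± 0.24 (SE, n = 5 per tissue, edgeR FDR = 0.02674), and the call was lost when backfat 65, backfat 67, liver 71 or liver 72 was left out (log2 fold change 0.60, 0.59, 0.66 and 0.55, edgeR FDR 0.07008, 0.06923, 0.06108 and 0.07921) or when both libraries of boar 67 were (0.60, edgeR FDR = 0.08577).

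The lipin mixture followed the same exchange. LPIN1 made up 76.16% ± 3.931 (SD, n = 5) of the summed lipin level in backfat and 6.145% ± 1.018 in liver. LPIN2 made up 8.148% ± 1.511 in backfat and 78.37% ± 7.262 in liver (exact permutation test, two-sided, adjusted p = 0.0119 for each). No backfat library had less than 70.7% LPIN1 and no liver library had less than 67.6% LPIN2. The LPIN3 share was 15.69% ± 3.187 in backfat and 15.49% ± 6.987 in liver, and a difference was not detected (exact permutation test, adjusted p = 0.9365). The summed lipin level was 40.35 ± 9.831 CPM per kb (SD, n = 5) in backfat and 26.98 ± 6.728 in liver, which did not pass the exact permutation test (adjusted p = 0.07407). That test did not use the pairing of tissues by boar. Within boars 65, 67, 69, 71 and 72 the lipin sum was higher in backfat by 0.9614, 0.5108, 0.3719, 0.8476 and 0.2041 on the log2 scale, with p = 0.0625 when the signs of the 5 differences were permuted (exact, two-sided), which is the limit for 5 pairs. It did pass without backfat 69, the lowest backfat library (0.73 on the log2 scale against 0.58, exact permutation test, adjusted p = 0.02116), and with other lengths or library size alone.

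**Figure D2:**
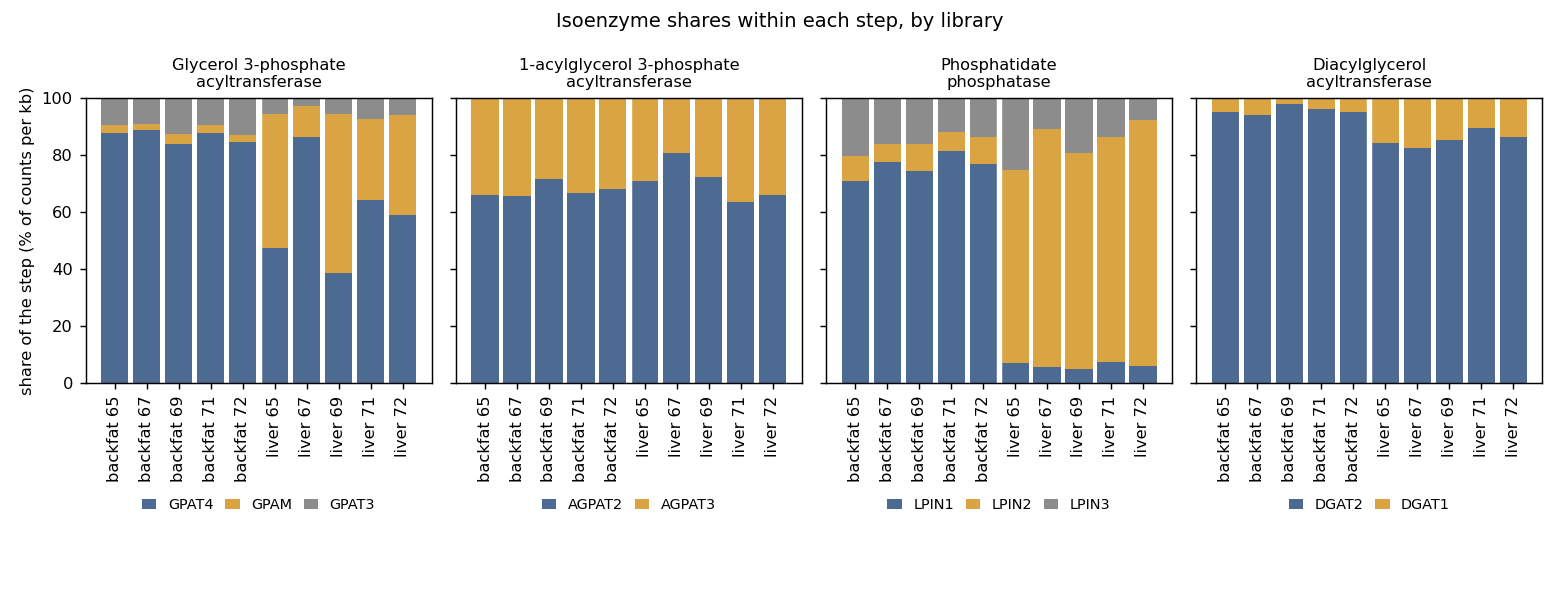
Share of each isoenzyme in the summed level of its step (counts per kb of exon, %), for 5 backfat and 5 liver libraries in 4 panels, 1 per step; each stacked bar is 1 library and adds up to 100%. LPIN1 holds 70.7 to 81.37% of the lipin sum in backfat and 4.959 to 7.428% in liver, where LPIN2 takes its place, whereas the AGPAT2 share is 65.49 to 71.4% in backfat and 63.52 to 80.79% in liver.

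At the last step, both diacylglycerol acyltransferases were higher in backfat, DGAT2 8.642-fold and DGAT1 2.292-fold. The 2 enzymes catalyse the same reaction but belong to unrelated protein families. DGAT2 (ENSSSCG00000034102, chr9:10032163-10066082, plus strand, 9 exons) was at 1360, 845, 1656, 1619 and 1227 CPM in backfat (boars 65, 67, 69, 71 and 72) and at 169, 47.6, 184, 172 and 203 CPM in liver. Each backfat library was several times above the highest liver library, and liver 67 lay far below the other liver libraries. The log2 fold change was 3.11 ± 0.40 (SE, n = 5 per tissue, edgeR FDR = 2.861e-05), and 2.84 without liver 67 (edgeR FDR = 4.125e-06).

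DGAT1 (ENSSSCG00000005918, chr4:452890-463665, plus strand) was at 64.2, 48.8, 32.7, 62.9 and 60.5 CPM in backfat (boars 65, 67, 69, 71 and 72) and at 29.6, 9.40, 30.1, 18.6 and 29.6 CPM in liver. Backfat 69 was the lowest backfat library and stood just above the highest liver library. The log2 fold change of DGAT1 was 1.197 ± 0.31 (SE, n = 5 per tissue, edgeR FDR = 0.005174), and 0.97 without liver 67, the lowest liver library. The DGAT1 span overlaps HSF1 on the opposite strand and reads were counted without strand, so reads of the shared part cannot be told apart. GPAT3 likewise overlaps LOC102158409 on the opposite strand, and LPIN1 overlaps LOC110260056 on its own strand.

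DGAT2 dominated the step in both tissues but more so in backfat, with 95.65% ± 1.432 (SD, n = 5) of the summed level against 85.56% ± 2.679 in liver. The lowest backfat share, 94.16%, was above the highest liver share, 89.61%. Without liver 67, the lowest liver library at 82.51%, the share differed by 9.32 percentage points in place of 10.08. On the log2 scale the ratio of DGAT1 to DGAT2 was -4.54 ± 0.6066 (SD) in backfat and -2.588 ± 0.3311 in liver (exact permutation test, two-sided, adjusted p = 0.0119), which is the same information as the share. The summed level of the step was 352.3 ± 82.73 CPM per kb (SD, n = 5) in backfat and 45.43 ± 17.75 in liver, the largest difference of the 4 steps (exact permutation test, adjusted p = 0.01587). It was 14.52 CPM per kb in liver 67, and the log2 difference was 3.07 with that library and 2.70 without it.

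**Figure D3:**
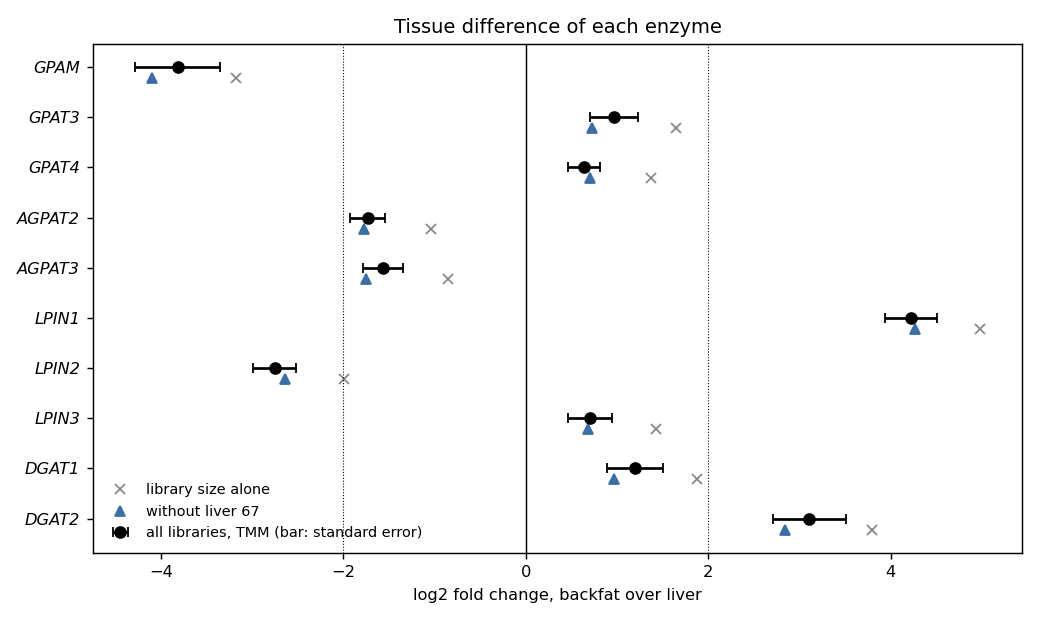
Log2 fold change of each enzyme, backfat over liver (x axis; positive is higher in backfat): black points are the edgeR fit of all 10 libraries with its standard error, triangles the fit without liver 67, crosses the fit with library size alone, and dotted lines mark a log2 fold change of 2 in either direction. LPIN1 (4.23) and GPAM (-3.82) lie at the ends, no gene changes side, and the crosses lie to the right of every point.

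The order of the levels per kb of exon differed between the tissues. It was taken with exon length alone, which is not in proportion to RefSeq coding length. AGPAT2 has 1469 bases of exon and 837 of coding sequence, DGAT2 3972 and 1083, and LPIN1 11443 and 2940. The order of the means therefore changes with coding length in both tissues. In liver, DGAT2 then comes above AGPAT2 to the first place, AGPAT3 passes GPAT4, and LPIN3 falls below LPIN1 to the last place. In backfat, AGPAT3 then passes DGAT1 and LPIN2 passes LPIN3, while DGAT2 stays first and GPAM last. The levels that follow are per kb of exon. In backfat, DGAT2 (337.8 CPM per kb) came first, above GPAT4 (59.97), LPIN1 (30.88), AGPAT2 (22.85), DGAT1 (14.55), AGPAT3 (10.82), GPAT3 (7.366), LPIN3 (6.294), LPIN2 (3.182) and GPAM (1.859). Neighbours whose libraries overlapped in backfat were LPIN1 and AGPAT2, AGPAT2 and DGAT1, DGAT1 and AGPAT3, and GPAT3 and LPIN3. In liver, AGPAT2 (76.03 CPM per kb) came first, followed by DGAT2 (39.08), GPAT4 (38.57), AGPAT3 (31.97), GPAM (26.19), LPIN2 (21.47), DGAT1 (6.345), LPIN3 (3.858), GPAT3 (3.773) and LPIN1 (1.649). Only AGPAT2 and DGAT2, and LPIN2 and DGAT1, were neighbours without overlap in liver. The order of the other neighbours in liver is not resolved by these libraries. Some genes further apart were separated. GPAT4 (33.94 to 49.06) lay wholly above LPIN2 (14.05 to 29.83). DGAT1 (2.54 to 8.144) and LPIN3 (2.48 to 5.293) lay wholly above LPIN1 (1.004 to 1.977). Per kb of exon, GPAM was the lowest of the 10 in every backfat library. With coding length, LPIN2 and LPIN3 fall below it in backfat 69. LPIN1 had the lowest mean in liver, but its libraries overlapped those of GPAT3, which was lower in liver 67.

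Other genes of glycerolipid synthesis were taken from a list of 27, of which 22 were matched to the count table and tested. At an FDR of at most 0.05, 8 were higher in backfat, 7 were higher in liver and 7 were not called, beside 28.0% and 27.0% of all genes tested. The median log2 fold change was 0.25, and 0 over all genes tested. Past both thresholds, beside AGPAT1, were FITM2 (3.17, edgeR FDR = 3.849e-07) in backfat and MOGAT1 (-2.64, edgeR FDR = 4.963e-06) and SELENOI (-2.46, edgeR FDR = 3.693e-06) in liver.

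FITM2, a protein of the endoplasmic reticulum needed for budding of lipid droplets, was at 77.9 to 107.1 CPM in backfat (median 98.93) and at 6.572 to 14.19 CPM in liver (median 11.07). Its relative FITM1, a muscle form, was under 2 CPM in every library, with a log2 fold change of -1.25. MOGAT1, which acylates monoacylglycerol to diacylglycerol without passing through phosphatidate, was at 1.853 to 3.564 CPM in backfat and at 9.37 to 23.17 CPM in liver, where liver 67 was the lowest (log2 fold change -2.85 without it). SELENOI, which uses diacylglycerol to make phosphatidylethanolamine, was at 11.06 to 17.9 CPM in backfat and at 45.69 to 117.9 CPM in liver.

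Among the other acyltransferases, AGPAT4 (1.91) and AGPAT5 (0.69) were higher in backfat and LCLAT1 (-1.49), an acyltransferase of lysocardiolipin, in liver. Without liver 67, the highest liver library for AGPAT4, the log2 fold change of AGPAT4 was 2.18 (edgeR FDR = 0.0004226), past both thresholds. The lipid phosphate phosphatases PLPP1 (1.497) and PLPP3 (1.49) were higher in backfat and PLPP2 (-0.70) in liver. CNEP1R1 (1.18), the regulatory subunit of the phosphatase that activates lipins, was higher in backfat, while its catalytic partner CTDNEP1 was not called (0.28, edgeR FDR = 0.08301). Of the glycerol 3-phosphate dehydrogenases, GPD1L (-1.11) was higher in liver and GPD1 was not called (0.67, edgeR FDR = 0.07271). In the branches to phospholipids, CDS2 (1.12) was higher in backfat and CHPT1 (-0.73) in liver, whereas CDS1, CEPT1, PCYT1A and PCYT2 were not called, nor was BSCL2 (seipin). Liver 67 was the lowest liver library for several of these genes, among them GPD1, AGPAT5, GPD1L and CHPT1. Without it the log2 fold change was 0.44 for GPD1 (edgeR FDR = 0.1031), 0.48 for AGPAT5, -1.31 for GPD1L and -0.92 for CHPT1 (edgeR FDR = 0.006363). With the boar as a replicate block, CHPT1 (edgeR FDR = 0.1208) and AGPAT5 (edgeR FDR = 0.05005) lost their call and CDS1 (-0.95, edgeR FDR = 0.03008) gained one. The calls of CHPT1 and AGPAT5 were also lost when single libraries were left out, and with library size alone those of GPD1L, PLPP2, CHPT1 and FITM1 were lost. With library size alone GPD1 (1.39, edgeR FDR = 0.001785), CEPT1 (1.04), CTDNEP1 (0.99), PCYT1A (0.92), PCYT2 (0.77) and BSCL2 (0.58) were called as higher in backfat, and GPD1 was also called by limma-voom (0.76, FDR = 0.04853).

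**Figure D4:**
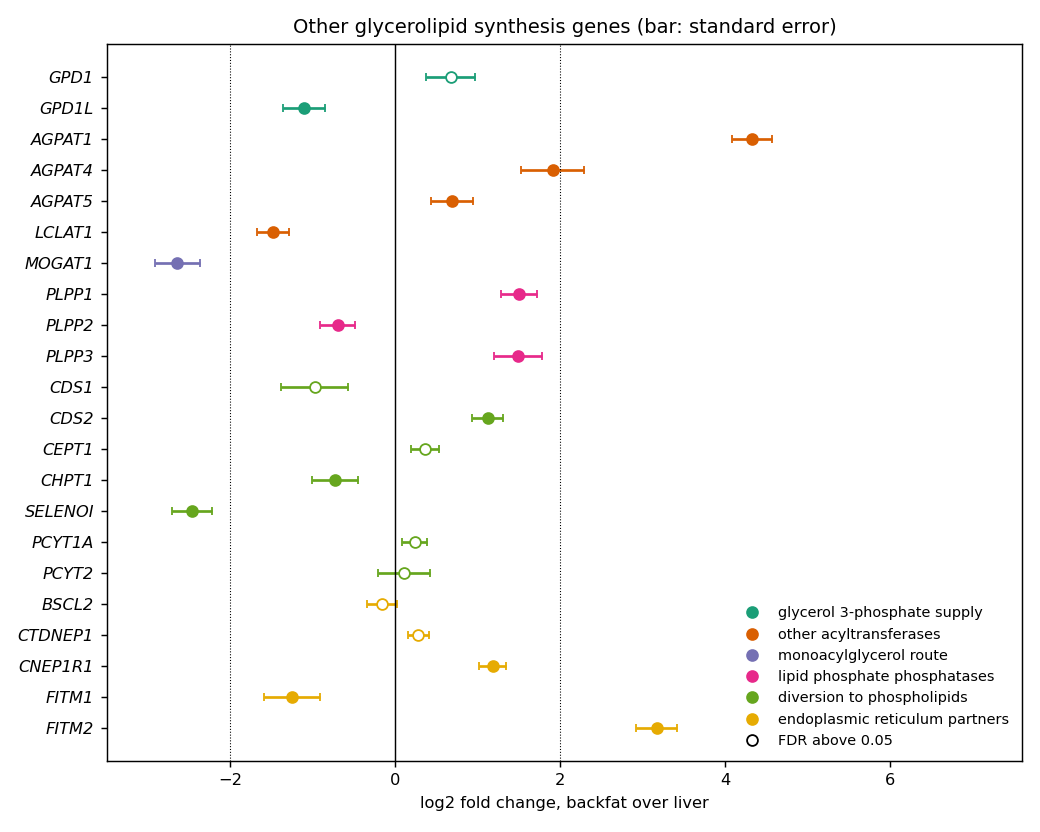
Log2 fold change with standard error, backfat over liver (x axis; positive is higher in backfat), of 22 other genes of glycerolipid synthesis coloured by role; open symbols have an FDR above 0.05 and dotted lines mark a log2 fold change of 2 in either direction. AGPAT1 (4.32) and FITM2 (3.17) lie far to the right, and MOGAT1 (-2.64) and SELENOI (-2.46) far to the left.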

How the data were processed

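RNA-seq counts per gene were deposited by the authors, after trimming with Trimmomatic, mapping with HISAT2 (Sscrofa11.1) and counting of pairs over exons with featureCounts 2.0.1 (Ensembl release 99, no strand). The deposited counts are raw, and exon length stands in the same table. The WGBS tables were not used. In R 4.3.3, genes were filtered with filterByExpr, normalized by TMM and tested with edgeR 4.0.16 (glmQLFit and glmQLFTest, tissue as the only term), with Benjamini-Hochberg adjustment (FDR) over 16275 genes. Standard errors were derived from the F statistic.

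Levels are TMM-scaled CPM, per kb of exon where genes are compared, and marker sums are CPM without TMM factors. Shares, the DGAT ratio and summed levels were tested by exact permutation (two-sided, 252 arrangements), with adjustment over 9 and 4 comparisons (5 for the shares of the step with AGPAT1). Depth was at least 43820042 counts per library. The enzymes and lists were chosen with earlier results of these data known. All 10 enzymes and the genes of the list could be named. Sequences and positions are from RefSeq (Sscrofa11.1). One upstream window is not reported here.

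Libraries were grouped by tissue, and boar numbers come from the column names, since the replicate numbers of the labels could not be matched to boars. Deviations of the libraries with the same boar number correlated at 0.24, 0.11, 0.05, 0.16 and 0.10 (boars 65, 67, 69, 71 and 72). The highest correlation of each backfat library with the liver of another boar was 0.06, 0.09, 0.13, 0 and 0.06. That of backfat 69 was thus higher with another boar than with its own. The boar as a block was an alternative. Others were DESeq2 1.42.0, limma 3.58.1 (voom), glmTreat, other scalings, lengths and filters, and each library left out.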

Additional observations from a re-analysis of the deposited data

Results flagged for a closer look

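In a check of 46 groups of 5 libraries, 2 groups held a library far from the other 4. That is no more than the about 1 in 20 that chance alone gives. Both flagged values were liver 67 at the last step, and they are not separate, since DGAT2 makes up most of the summed level. DGAT2 was at 47.58 CPM there, a gap of 0.7812 of the range of the liver libraries. The summed level of DGAT1 and DGAT2 was 3.86 on the log2 scale (CPM per kb), a gap of 0.8577 of the range. Liver 67 also had the lowest hepatocyte marker sum of the liver libraries (19790 CPM, without TMM factors) and the highest mitochondrial share (44.48%). Their part in these values was not tested. The DGAT2 share of liver 67, which does not depend on scaling, was 82.51%, next to 84.17% in liver 65.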

How the results depend on the processing

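No enzyme changed direction under 19 alternatives each, and the call of LPIN3 was the one lost. Of 365 alternative values of a fold change, share, ratio or sum, 339 kept direction and call, 5 lost the call, 6 gained one and 15 turned direction. The 57 alternative counts of called genes all stayed within 1.5 times. Library size alone shifted all genes by 0.71 (median log2 fold change) and the part of calls higher in backfat from 50.9% to 77.9%. With it, 3 enzymes were past both thresholds, LPIN2 having -1.996, and GPAT4 had 1.38, GPAT3 1.65, LPIN3 1.42, DGAT1 1.87, AGPAT2 -1.04 and AGPAT3 -0.85. The fit with the boar as a replicate block called 10 enzymes, 4 past both thresholds, and 14 genes of the list, and changed no call other than those of CHPT1, AGPAT5 and CDS1. Each library left out gave 9 to 10 enzymes, 4 past both thresholds, and 13 to 15 genes of the list. Pairing by boar as a replicate block, chosen after the data were seen, left 9 shares and sums past the unpaired test with p = 0.0625 in an exact sign-flip test, the smallest that 5 pairs allow, so these could not pass: the shares of GPAM (-32.8), GPAT3 (5.33), GPAT4 (27.47), LPIN1 (70.01), LPIN2 (-70.22) and DGAT2 (10.08), the DGAT ratio (-1.95) and the sums of the second (-1.69) and last step (3.07). Each had its direction in 5 of 5 boars.

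The LPIN3 share (backfat minus liver) turned to -2.22 without division by length, -2.11 with RefSeq coding length and -1.05 without boar 67, and ranged from -1.69 to 2.70 percentage points over single libraries left out. The summed level of the first step turned to -0.42 without division by length, -0.059 with coding length and -0.0017 without mitochondrial genes, passed the test at 0.76 with library size alone, and ranged from -0.026 to 0.16 over libraries left out. The lipin sum passed at 1.09, 1.02 and 1.30 (no length, coding length, library size alone) and ranged from 0.48 to 0.73. With AGPAT1, AGPAT4 and AGPAT5 counted, the AGPAT2 share differed by -52.25 points and the sum of the second step by 0.78, since AGPAT1 leads that step in backfat. The TMM factors, which library size alone leaves out, were 1.182 to 1.436 in backfat and 0.6485 to 0.9156 in liver. The alternatives of length change only the divisor of each gene. Bases of exon and of coding sequence were 11443 and 2940 for LPIN1, 3260 and 2574 for LPIN3, and 8119 and 2478 for GPAM. Causes of the shifts with libraries left out were not tested. The lowest count of an enzyme was 192 (GPAT3 in liver 67). P-values of the main tests measure the spread between the 5 libraries of a tissue, 1 per boar, and do not use the pairing by boar.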
